A study of Mus musculus with 16 samples.

Results

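Bmf and 9 further genes of the BCL2 family and its relatives were followed by RNA sequencing through 6 treatments of a mouse brown adipocyte line. Bmf was chosen from these same measurements, as a gene lowered by etomoxir alone and for its fall after the lipolysis activator SR-3420. That fall was the largest among genes with a mean normalised count of at least 50 over all samples, vehicle included. Bbc3, Pmaip1, Bcl2l11, Bid, Bad, Bnip3l, Mcl1, Bcl2l1 and Bcl2 were added by name as the family of Bmf. The 10 genes are 10 of the 20295 in the deposited count table, and all 10 were among the 12786 genes with enough counts to test.

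The cells were brown preadipocytes of WT genotype, immortalised with SV40 large T antigen and differentiated in culture, and were used on day 7. They received DMSO (vehicle), 5 µM triacsin C (TC, which the labels spell Triascin C) or 50 µM etomoxir (ETO) for 1 h and then, in 3 of the 6 groups, 10 µM SR-3420 for 3 h. SR-3420 is a ligand of ABHD5, the coactivator of the triglyceride lipase ATGL, and starts lipolysis without a receptor or cAMP. Triacsin C keeps fatty acids from being joined to coenzyme A, and etomoxir keeps them out of mitochondria by blocking CPT1. The labels and the study's text give different SR-3420 doses, and the dose of the labels is used here.

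Vehicle (replicates 2 and 3) and SR-3420 (replicates 1 and 3) had 2 samples each, and TC, TC+SR-3420, ETO and ETO+SR-3420 had 3 each. Vehicle replicate 1 and SR-3420 replicate 2 were not analysed here. The study describes its sequencing samples as independent experiments of this line, and the labels do not say which samples came from the same experiment. Total counts were 14032494 and 10097582 for vehicle and 19156037 and 15667121 for SR-3420, in the order of their replicates. They were 9452861, 15818919 and 13164376 for TC, and 16265789, 12043744 and 10659704 for TC+SR-3420. The ETO samples had 14993463, 11813662 and 10993504 counts and the ETO+SR-3420 samples 25670624, 13173278 and 16512525.

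Of the 12 brown adipocyte markers examined, Fabp4 was the most abundant at an RPKM (reads per kilobase and library size) of 9097. Of the markers of brown fat and its thermogenesis, Cidea averaged 16.0, Ppargc1a 7.04 and Prdm16 2.60 on this scale, whereas Ucp1 had no more than 57 counts in any sample and Dio2 had 0 in 12 of the 16 samples. The large T antigen of the line binds p53, which limits the cells as a model for Bbc3 and Pmaip1, genes that p53 can activate.

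Proteins of the BCL2 family decide whether the outer membrane of mitochondria is breached during apoptosis. MCL1, BCL-XL (from Bcl2l1) and BCL2 hold the pore-forming BAX and BAK in check, and the BH3-only proteins BMF, PUMA (from Bbc3), NOXA (from Pmaip1), BIM (from Bcl2l11), BID and BAD bind these guardians and release the pore formers. Several BH3-only genes are switched by transcription, Bcl2l11 and Bbc3 by FOXO factors among others, and BMF and BIM proteins are tethered to motor complexes by dynein light chains. Bnip3l encodes NIX, a relative with a BH3-like part that marks mitochondria for autophagy.

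Levels of the 10 genes, as RPKM over the counted length, spanned a wide range. Over the 16 samples Mcl1 averaged 74.3, Bad 45.2, Bid 31.7, Bcl2l1 22.8, Bbc3 16.0 and Bnip3l 13.4. Bcl2l11 averaged 6.71, Bcl2 1.74, Bmf 1.21 and Pmaip1 0.560 on the same scale. By these means the guardian Mcl1 was the most abundant member per length and the BH3-only genes Bmf and Pmaip1 were the scarcest, but the order depends on the group, and in vehicle Bmf (4.64) exceeded Bcl2 (1.46). Raw counts of a single sample ran from 2 to 61 for Pmaip1 and from 19 to 315 for Bmf, so these genes are measured with the fewest reads. For the others the lowest and highest raw counts were 226 and 827 for Bbc3, 245 and 756 for Bcl2l11, 518 and 1571 for Bid, 305 and 1113 for Bad, 357 and 1163 for Bnip3l, 2233 and 6571 for Mcl1, 250 and 997 for Bcl2l1, and 75 and 370 for Bcl2.

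**Figure D1:**
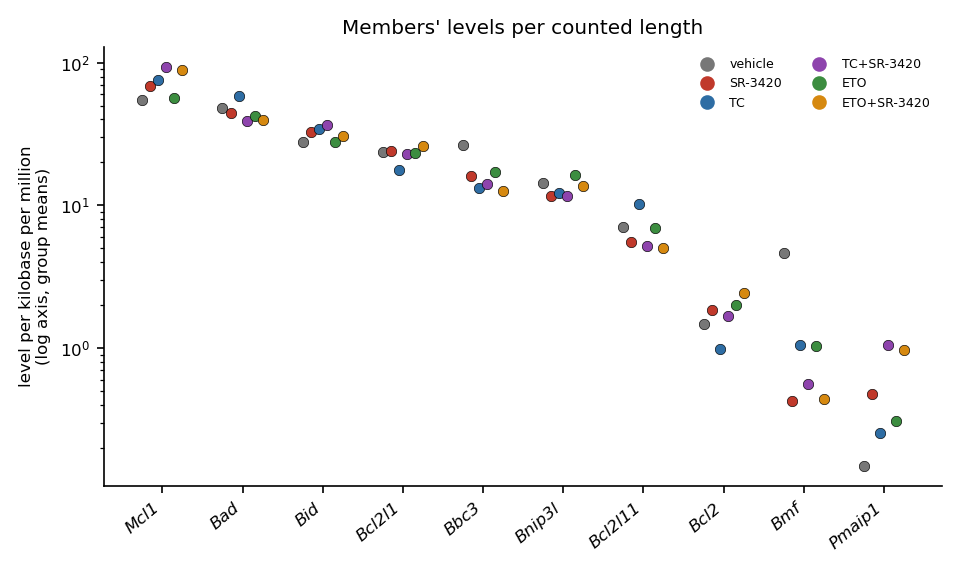
Mean level of each member in each of the 6 groups, as RPKM on a log axis, with 1 point per gene and group and members ordered by their mean over the samples. Mcl1 has the highest and Pmaip1 the lowest mean, and for Bmf the vehicle point (4.64) stands above its 5 other groups, which lie between 0.423 and 1.05.

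In the mm9 coordinates of the deposited table, Bmf (NM_138313) spans chr2:118354493-118375414 on the minus strand, with 4633 counted bases. Bcl2l11 (NM_207681) spans chr2:127951774-127988283 on the plus strand and Bcl2l1 (NM_001289739) chr2:152584468-152656453 on the minus strand, so 3 of the 10 lie on chromosome 2. Bbc3 (NM_133234) spans chr7:16894932-16903683 and Pmaip1 (NM_021451) chr18:66618258-66625212, both on the plus strand.

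Bid (NM_007544) spans chr6:120843137-120866838 on the minus strand and Bad (NM_007522) chr19:7016351-7026395 on the plus strand. Bnip3l (NM_009761) spans chr14:67604077-67627714 on the minus strand, Mcl1 (NM_008562) chr3:95462643-95467101 on the plus strand and Bcl2 (NM_009741) chr1:108434755-108610867 on the minus strand. Bad overlaps Gpr137 and Bcl2l1 overlaps Cox4i2 in the table, and the strand of the counting was not stated, so reads of those neighbours cannot be told apart from theirs.

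Promoters of the members were searched for 5 planned motifs, among them the FOXO motif, a known element of Bcl2l11 and Bbc3. A link between these letters and the members' responses was not tested. RefSeq promoters (build GRCm38.p6, 250 bases before to 50 after a start) held 16 entries for 8 of the 10 members, without entries for Pmaip1 and Bnip3l. The motifs, read on both strands, were GTAAACA for FOXO, TGACGTCA for the cAMP response element, TGATGNAA for the C/EBP-ATF response element, TGANTCA for AP-1 and CACGTG for the E-box. They occur in 3.65%, 1.79%, 3.97%, 7.81% and 7.15% of all 32851 promoters of that length. Among the 16 entries FOXO letters were in 2, those of Bcl2l11 promoter 1, beginning 227 bases before the start, and of Bbc3 promoter 2, 167 bases before it on the minus strand. The E-box was in 1 entry, Bbc3 promoter 3, 64 bases before the start. None of the 3 Bmf entries held any of the 5 motifs, which says only that these letters are not in these windows. The upstream-most Bmf entry (chr2:118549637-118549936, minus strand) is printed beside the entries with the FOXO letters, of Bcl2l11 (chr2:128125788-128126087, plus strand) and of Bbc3 (chr7:16310011-16310310, plus strand), so that the members with and without the letters can be compared. All run 5′ to 3′ on the gene's strand, and capitals mark the FOXO letters, which read TGTTTAC in Bbc3.
Bmf promoter 3: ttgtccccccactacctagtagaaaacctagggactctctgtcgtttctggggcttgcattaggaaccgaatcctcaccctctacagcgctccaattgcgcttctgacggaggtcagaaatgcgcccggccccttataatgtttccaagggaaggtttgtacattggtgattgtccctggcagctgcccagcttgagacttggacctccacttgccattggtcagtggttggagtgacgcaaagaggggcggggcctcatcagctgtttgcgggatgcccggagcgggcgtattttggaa
Bcl2l11 promoter 1: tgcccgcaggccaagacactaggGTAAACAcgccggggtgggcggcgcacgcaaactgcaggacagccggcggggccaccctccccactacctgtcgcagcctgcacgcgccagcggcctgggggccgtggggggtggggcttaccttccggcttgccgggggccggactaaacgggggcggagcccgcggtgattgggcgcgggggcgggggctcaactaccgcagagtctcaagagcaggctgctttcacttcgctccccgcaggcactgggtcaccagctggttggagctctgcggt
Bbc3 promoter 2: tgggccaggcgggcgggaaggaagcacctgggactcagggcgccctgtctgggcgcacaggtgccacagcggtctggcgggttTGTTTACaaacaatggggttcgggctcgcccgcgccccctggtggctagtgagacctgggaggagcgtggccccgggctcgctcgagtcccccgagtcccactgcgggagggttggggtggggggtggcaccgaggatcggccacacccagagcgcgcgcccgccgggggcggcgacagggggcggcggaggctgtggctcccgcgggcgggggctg

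Bmf was counted highest in vehicle, with normalised read counts (scaled to library size by TMM factors) of 328 in replicate 2 and 284 in replicate 3. The SR-3420 samples had 38.6 and 17.2. Under triacsin C the values were 64.3, 74.0 and 70.3 without SR-3420 and 42.9, 34.9 and 33.4 with it. Under etomoxir they were 66.6, 68.6 and 70.8 without SR-3420 and 37.2, 25.0 and 25.2 with it. The samples fall into 3 tiers with no overlap. Vehicle stands at the top, the inhibitors without SR-3420 lie in the middle, and every sample with SR-3420 lies at the bottom, at 42.9 or less.

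**Figure D2:**
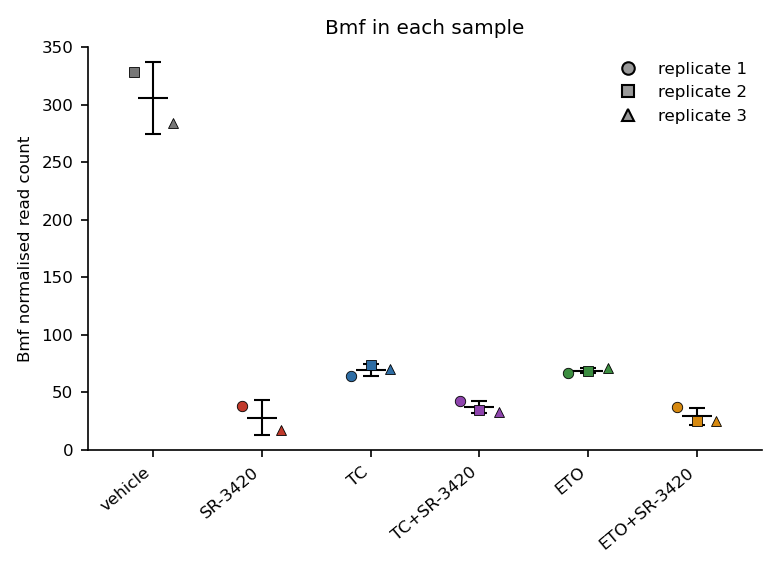
Normalised read count of Bmf in each of the 16 samples, by group, with marker shape for the replicate and black bars for the mean and 1 SD. The 2 vehicle samples sit at 284 and 328, the TC and ETO samples between 64.3 and 74.0, and all 8 samples with SR-3420 between 17.2 and 42.9.

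Group means with SD were 306 ± 31.4 (n = 2) in vehicle, 69.6 ± 4.89 (n = 3) in TC and 68.7 ± 2.11 (n = 3) in ETO. TC and ETO did not differ beyond their spread. The groups with SR-3420 had means of 37.1 ± 5.10 (n = 3) under triacsin C, 29.1 ± 6.99 (n = 3) under etomoxir and 27.9 ± 15.2 (n = 2) without inhibitor, and their ranges overlapped. In RPKM the same order ran from 4.64 in vehicle through 1.05 in TC and 1.04 in ETO to 0.561, 0.441 and 0.423. In bulk samples, fewer cells that carry a transcript and less of it per cell cannot be told apart.

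As a description of how Bmf was chosen, it was 10.9-fold lower with SR-3420 against vehicle. Its log2 fold change was -3.44 (SE 0.318, and -4.14 to -2.98 over 11 alternatives). That is the largest fall among 10727 genes with a mean normalised count of at least 50, where the next were Reps2 at -2.20, Ptgfr at -2.12 and Abca8a at -1.83. That mean spans all samples. For Bmf it was 80.1 and includes vehicle at 306, the high group of this comparison, beside group means of 27.9 to 69.6 elsewhere. Among all 12786 tested genes Bmf ranked 6, behind genes with fewer counts. With etomoxir alone Bmf was -2.15 (SE 0.259) on the log2 scale, 4.45-fold lower, and it was the single gene called lower by edgeR in that comparison, whereas DESeq2 called 10 lower. The genes called higher there were Hmox1 at 1.62 and Fgf21 at 2.16, and those just outside the threshold were Angptl4 at 0.81 (adjusted p = 0.0599) and Spry4 at 0.71 (adjusted p = 0.0677), by edgeR with Benjamini-Hochberg adjustment. The next gene among the lower ones, Ndrg1 at -0.82, was far from it (edgeR adjusted p = 0.279). Bmf lost its call there with only the ETO and vehicle samples in the model. Its call was also lost without vehicle replicate 2 or 3 or ETO replicate 1 or 2, with Bmf at -2.25 to -2.05.

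Triacsin C alone gave much the same Bmf level as etomoxir, -2.13 (SE 0.260) against vehicle, 4.39-fold lower, rank 27 from the lowest value among the 10727 genes with a mean of at least 50. This comparison and that with etomoxir share the vehicle samples with the comparison that chose Bmf, so both are descriptions. With SR-3420 on top of etomoxir Bmf was -1.22 (SE 0.253) against ETO, 2.32-fold lower and rank 187 of 10727, again a description, since the ETO samples took part in the choice.

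TC+SR-3420 against TC uses none of the samples that chose Bmf, and there its difference was tested. All 3 TC+SR-3420 samples lay below all 3 TC samples. Bmf fell by 0.90 on the log2 scale (SE 0.256, 95% confidence interval -1.45 to -0.35, 1.87-fold lower, edgeR quasi-likelihood adjusted p = 0.014, with Benjamini-Hochberg correction across the tested genes). By size this was rank 1059 of the 10727 genes, of which 2075 were called lower. The call was lost without TC+SR-3420 replicate 2 (-0.81, edgeR adjusted p = 0.0586) and without TC+SR-3420 replicate 3 (-0.83, adjusted p = 0.0501), within a range of 0.00318 to 0.0586 over 13 alternatives. The alternatives counted here and below keep the threshold on adjusted p alone. Asking as well for a log2 fold change of at least 1 left Pmaip1 as the only called member in this comparison.

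Bcl2l11, which encodes the BH3-only protein BIM, had normalised counts of 507 and 473 in vehicle and 401 and 373 with SR-3420. In TC it had 714, 737 and 693, the highest of any group, and 353, 394 and 328 in TC+SR-3420. ETO gave 464, 458 and 515, and ETO+SR-3420 gave 292, 358 and 389. The 3 groups with SR-3420 therefore shared 1 low range, 292 to 401, below every sample without it, and the TC samples stood above all others. Under triacsin C, Bcl2l11 fell with SR-3420 (log2 -0.995, SE 0.127, 1.99-fold lower, edgeR adjusted p = 6.94e-05), a call kept in all 13 alternatives at -1.02 to -0.93 but just short of a log2 fold change of 1. Under etomoxir it fell by 0.47 (SE 0.126, edgeR adjusted p = 0.0155), lost without ETO+SR-3420 replicate 1 (-0.36, adjusted p = 0.0576) and in a model of only the ETO and ETO+SR-3420 samples (-0.49, adjusted p = 0.114). Without inhibitor the value was -0.34 (SE 0.154) and did not pass (edgeR adjusted p = 0.214).

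Triacsin C alone raised Bcl2l11 by 0.54 on the log2 scale (SE 0.142, edgeR adjusted p = 0.024), the opposite direction to Bmf. This call was lost in 8 of 12 alternatives, with values of 0.47 to 0.59. They were library sizes only (edgeR adjusted p = 0.0736), no filter on low counts (0.127), only the groups compared (0.0596), and leaving out vehicle replicate 2 (0.0936), vehicle replicate 3 (0.196), TC replicate 1 (0.0606), TC replicate 2 (0.0721) or TC replicate 3 (0.0527). With etomoxir alone Bcl2l11 was at -0.03 (SE 0.141), with overlapping groups.

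Bbc3 encodes the BH3-only protein PUMA. Its normalised counts were 862 and 626 in vehicle, 454 and 454 with SR-3420, 346, 439 and 325 in TC, and 401, 449 and 344 in TC+SR-3420. ETO had 551, 540 and 355 and ETO+SR-3420 431, 339 and 302. Both vehicle samples exceeded all 14 others. The SR-3420 samples lay within the range of ETO and above every TC, TC+SR-3420 and ETO+SR-3420 sample. The groups with an inhibitor overlapped. Triacsin C alone lowered Bbc3 by 2.01-fold (log2 -1.005, SE 0.224, edgeR adjusted p = 0.00947), and the call was lost without vehicle replicate 2 (-0.76, adjusted p = 0.12). With SR-3420 alone the log2 value was -0.71 (SE 0.249, edgeR adjusted p = 0.104) and was not called. It was called by DESeq2 (-0.73, adjusted p = 0.0466) and by edgeR with library sizes only (-0.82, adjusted p = 0.0367). With etomoxir alone it was -0.63 (SE 0.224, unadjusted p = 0.015, edgeR adjusted p = 1). Once an inhibitor was present SR-3420 left Bbc3 at 0.10 (SE 0.205, edgeR adjusted p = 0.724) under triacsin C and at -0.43 (SE 0.204, edgeR adjusted p = 0.142) under etomoxir, and without ETO replicate 3 the latter was called (-0.61, adjusted p = 0.0368).

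Pmaip1, which encodes NOXA, a BH3-only protein that binds MCL1, moved the other way at very low counts. Normalised counts were 2.08 and 9.20 in vehicle and 16.8 and 19.0 with SR-3420. They were 15.3, 5.85 and 7.57 in TC against 35.6, 22.8 and 60.2 in TC+SR-3420, and 9.38, 10.1 and 15.3 in ETO against 20.0, 38.5 and 51.2 in ETO+SR-3420. Within each arm every sample with SR-3420 exceeded every sample without it. Pmaip1 rose by 2.09 on the log2 scale under triacsin C (SE 0.524, 4.26-fold, edgeR adjusted p = 0.00696), in all 12 alternatives that tested it, with adjusted p of at most 0.0393. Under etomoxir it rose by 1.64 (SE 0.493, 3.12-fold, edgeR adjusted p = 0.0273), a call lost in 5 of 12 alternatives. These were only the groups compared (1.61, edgeR adjusted p = 0.0595) and leaving out ETO replicate 1 (1.5, 0.087), ETO replicate 2 (1.56, 0.0897), ETO+SR-3420 replicate 2 (1.60, 0.0738) or ETO+SR-3420 replicate 3 (1.30, 0.0905). Without inhibitor the value was 1.72 (SE 0.723, edgeR adjusted p = 0.178), and it ran from 0.95 to 3.03 over 10 alternatives.

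Bad, whose BH3-only product is controlled by phosphorylation, had 760, 858 and 743 normalised counts in TC and 562, 591 and 408 in TC+SR-3420. In this pair of groups all samples with SR-3420 were lower, whereas the vehicle, SR-3420, ETO and ETO+SR-3420 samples overlapped between 430 and 759. Bad fell by 0.60 on the log2 scale under triacsin C (SE 0.215, edgeR adjusted p = 0.0438), close to the threshold, and 8 of 13 alternatives lost the call at -0.66 to -0.45. Its edgeR adjusted p was 0.0508 with DESeq2's size factors, 0.067 without the filter, 0.0754, 0.131 and 0.0701 without TC replicates 1, 2 and 3, and 0.0652, 0.0515 and 0.162 without TC+SR-3420 replicates 1, 2 and 3. Bid, which caspase-8 cleaves into an activator of BAX and BAK, ranged from 677 to 1039 normalised counts, and no comparison called it, its largest value being 0.31 (SE 0.143, edgeR adjusted p = 0.195) for TC against vehicle.

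Bnip3l ranged from 389 to 1184 normalised counts. Replicate 3 was the highest sample in each of the 6 groups, at 819 in vehicle, 623 in SR-3420, 595 in TC, 800 in TC+SR-3420, 1184 in ETO and 976 in ETO+SR-3420. Replicates differed widely in every group but TC (540 to 595), the samples of each pair of groups compared overlapped, and no comparison called it. Its SE was 0.480 for SR-3420 against vehicle and its estimate -0.29 there, so a change of moderate size was not detectable.

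**Figure D3:**
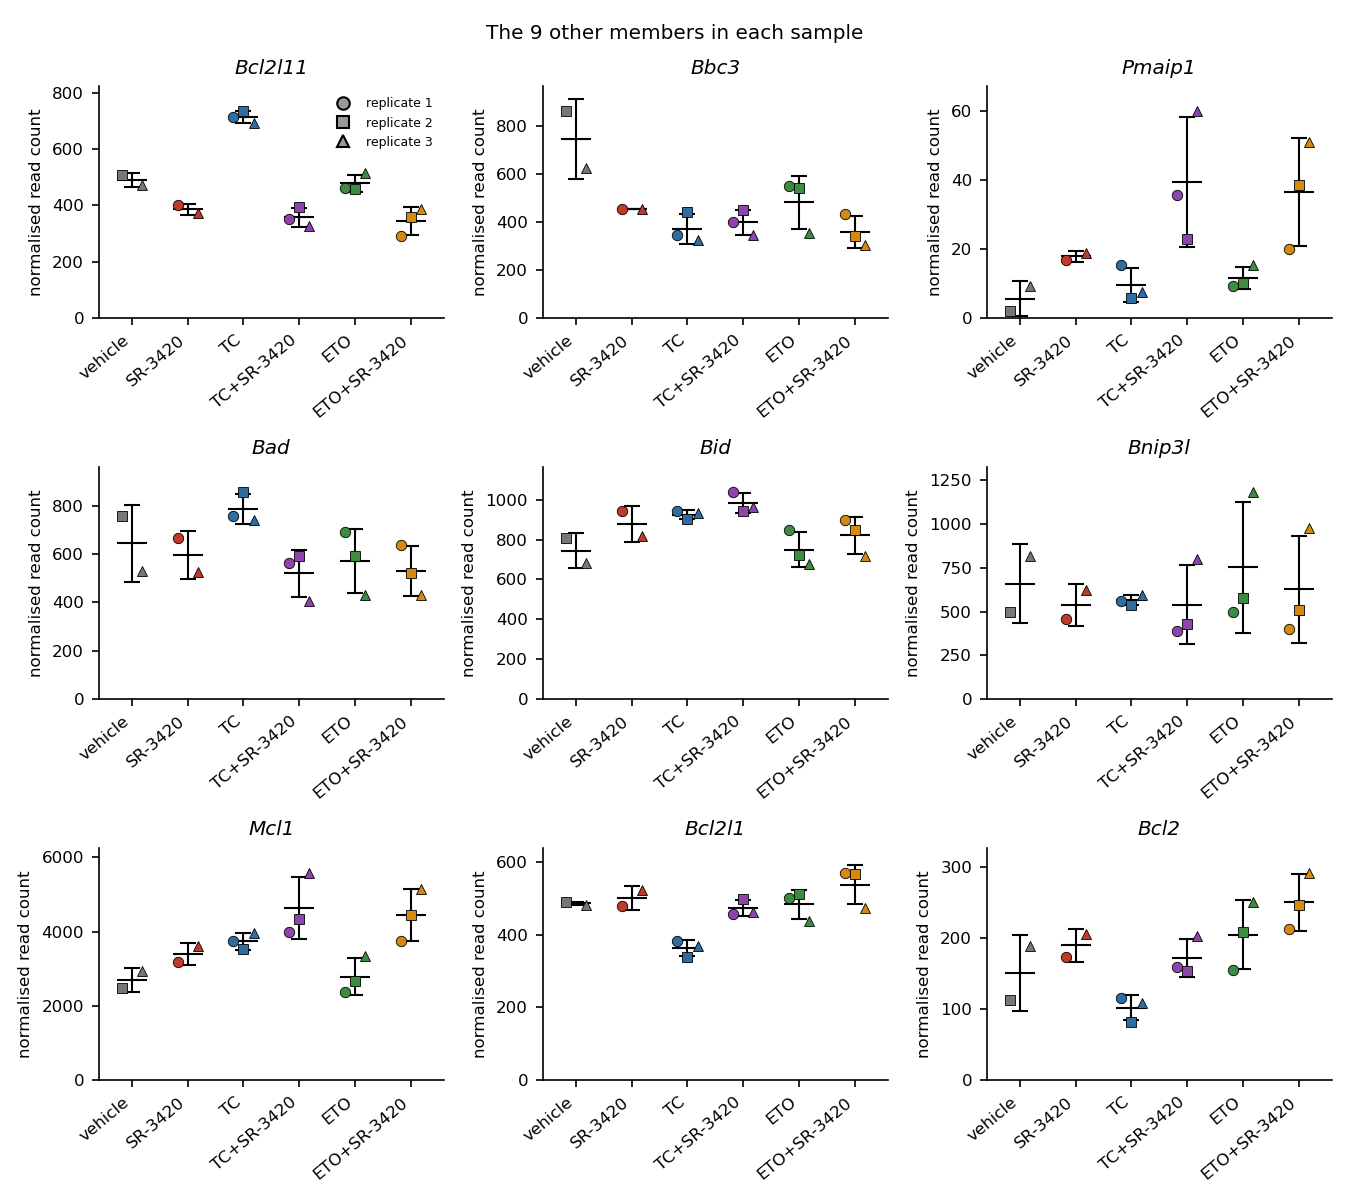
Normalised read counts of the 9 other members in each sample, 1 panel per gene with its own axis from 0, points shaped by replicate and black bars for the mean and 1 SD. Bcl2l11 is highest in TC (693 to 737), Pmaip1 is higher in the samples with SR-3420 of each arm, and Bnip3l is highest in replicate 3 of every group.

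Among the guardians, Mcl1 encodes a short-lived protein that many cell types need to survive. It had 2469 and 2934 normalised counts in vehicle, 3192 and 3618 with SR-3420, 2361, 2667 and 3341 in ETO, and 3759, 4437 and 5151 in ETO+SR-3420. TC had 3736, 3518 and 3968, and TC+SR-3420 had 3991, 4348 and 5584. Every sample with SR-3420 exceeded the samples of its own arm without it. The rise passed the test under etomoxir (log2 0.67, SE 0.168, 1.59-fold, edgeR adjusted p = 0.0102), a call lost only in a model of the ETO and ETO+SR-3420 samples alone (0.65, adjusted p = 0.0881). The values of 0.31 (SE 0.167, edgeR adjusted p = 0.163) under triacsin C and 0.33 (SE 0.205, edgeR adjusted p = 0.379) without inhibitor did not pass. For TC against vehicle Mcl1 was at 0.47 (SE 0.190, edgeR adjusted p = 0.14).

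Bcl2l1, the gene of BCL-XL, was lowest in TC, at 383, 340 and 369 normalised counts. TC+SR-3420 had 458, 499 and 463, and the other 4 groups lay between 437 and 570. The TC samples were below all others. With SR-3420 under triacsin C, Bcl2l1 rose by 0.38 on the log2 scale (SE 0.116, edgeR adjusted p = 0.0207), lost without TC replicate 2 (0.33, adjusted p = 0.0883) and without TC replicate 3 (0.39, adjusted p = 0.0528). Triacsin C alone against vehicle gave -0.42 (SE 0.129), just outside the threshold in edgeR (adjusted p = 0.0516) and inside it in DESeq2 (-0.44, adjusted p = 0.00669).

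Bcl2, at lower counts, also had its lowest mean in TC, though 1 TC sample exceeded a vehicle sample. TC samples had 115, 81.8 and 108 normalised counts and TC+SR-3420 samples 159, 154 and 202, without overlap. Bcl2 rose by 0.76 on the log2 scale with SR-3420 under triacsin C (SE 0.240, 1.69-fold, edgeR adjusted p = 0.0245), lost without TC replicate 2 (0.62, adjusted p = 0.106) and without TC+SR-3420 replicate 3 (0.63, adjusted p = 0.0932). In the other groups it ran from 113 to 291, with overlap between the samples with and without SR-3420 in the arms without inhibitor and with etomoxir.

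The counts for each comparison put the members beside all tested genes, which is a description, since the members were named with earlier results known. SR-3420 against vehicle, the response to lipolysis alone, called 0 of the 9 other members by edgeR, beside 4.75% of all genes higher and 2.79% lower. At an unadjusted p under 0.05 there were 3 (Bbc3, Pmaip1 and Bcl2l11), and DESeq2 called 1 (Bbc3). The median log2 fold change was -0.04 over the 10 members and -0.004 over all genes. Scaling by library size only moved the median of all genes to -0.118 and the split of called genes to 467 higher and 572 lower, against 607 and 357 with TMM, so directions in this comparison are relative to that shift.

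TC+SR-3420 against TC, the response with acyl-CoA synthesis blocked, called 3 of the 10 members higher (Pmaip1, Bcl2l1 and Bcl2) and 3 lower (Bmf, Bcl2l11 and Bad), where edgeR called 17.3% of all genes higher and 19.7% lower. The guardian Mcl1 (0.31) and the BH3-only genes Bbc3 (0.10) and Bid (0.09) were not called there, and guardians were not tested against BH3-only genes as groups. The directions of the called members held with every scaling of the libraries tried. The members' median was 0.09 beside 0.02 for all genes. Leaving out single libraries gave 3 to 5 called members, the fewest (3) without TC replicate 2 and without TC+SR-3420 replicate 3.

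ETO+SR-3420 against ETO, the response with mitochondrial uptake blocked, called 2 of the 9 other members higher (Pmaip1 and Mcl1) and 1 lower (Bcl2l11), with 12.5% of all genes higher and 12.8% lower. This even split depends on the scaling, since library sizes only gave 1328 genes higher and 2029 lower. The medians were 0.01 for members and 0.01 for all genes. TC against vehicle called 1 of the 9 higher (Bcl2l11) and 1 lower (Bbc3), with 4.77% and 6.94% of all genes (501 and 1027 genes with library sizes only), and medians of 0.03 for members and 0.07 for all genes. Without vehicle replicate 2 neither was called, and without vehicle replicate 3 or any of the 3 TC replicates Bbc3 alone was. ETO against vehicle called 0 of the 9 by edgeR, with 0.0156% of all genes higher and 0.00782% lower. There 1 (Bbc3) had an unadjusted p under 0.05 and DESeq2 called 0. Comparisons with vehicle share its 2 samples, and comparisons of 1 arm share the samples of that arm.

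**Figure D4:**
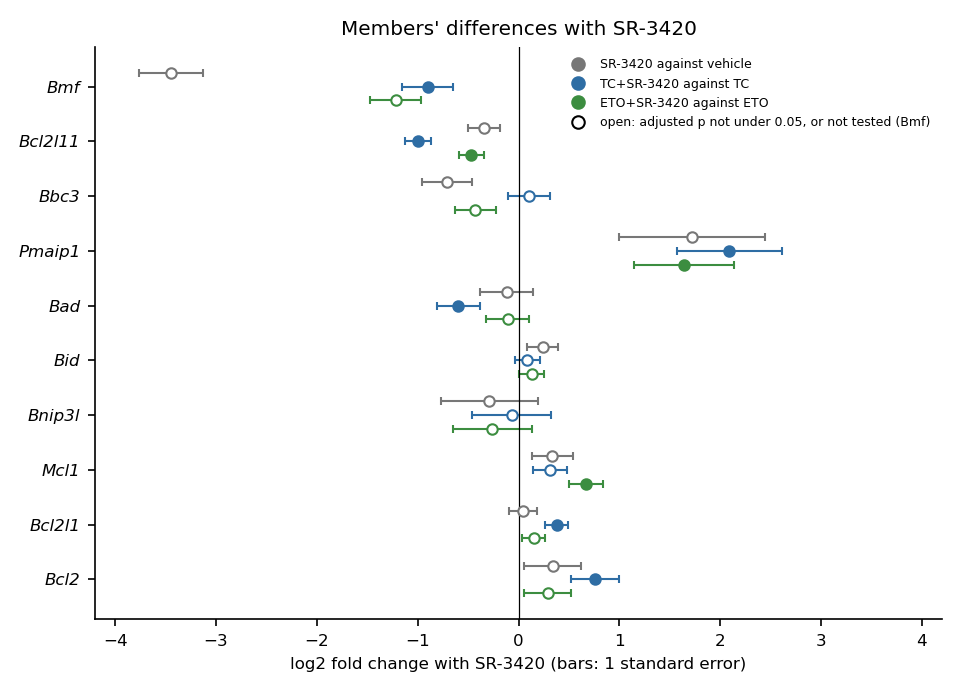
Log2 fold change of each member with SR-3420 in the arm without inhibitor (grey), with triacsin C (blue) and with etomoxir (green), with bars of 1 standard error. Filled points have an edgeR adjusted p under 0.05, and open points do not or, for Bmf without inhibitor (-3.44) and under etomoxir (-1.22), were not tested. Bmf and Bcl2l11 lie left of 0 and Pmaip1 lies right of 0 in every arm.

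Whether SR-3420 acted differently with an inhibitor was tested as a difference of responses. For Bmf these are descriptions. Its response was 2.54 (SE 0.398) less negative on the log2 scale with triacsin C than without, 2.23 (SE 0.395) less negative with etomoxir than without, and 0.32 (SE 0.358) apart between the inhibitors. With an inhibitor the difference starts from a lower level, 69.6 in TC and 68.7 in ETO against 306 in vehicle, and the groups with SR-3420 overlap.

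Of the 9 other members, edgeR called 0 for triacsin C against none, where 1.24% of all genes were higher and 1.27% lower. There 2 (Bcl2l11 and Bbc3) had an unadjusted p under 0.05, and DESeq2 called 1 (Bcl2l11, -0.61, adjusted p = 0.0478). For etomoxir against none edgeR called 0 of the 9 and 0% of all genes in either direction. At an unadjusted p under 0.05 there were 0 of the 9 and 307 of all genes, and DESeq2 called 0 of the 9. For triacsin C against etomoxir edgeR called 0 of the 9, beside 1.52% higher and 0.774% lower of all genes, with 1 (Bcl2l11) at an unadjusted p under 0.05 and 0 by DESeq2. Bcl2l11 came closest. Its response was -0.65 (SE 0.199, edgeR adjusted p = 0.107) with triacsin C relative to none and -0.53 (SE 0.178, 95% confidence interval -0.91 to -0.14, edgeR adjusted p = 0.18) relative to etomoxir. For Mcl1 the response differed between the inhibitors by -0.36 (95% confidence interval -0.87 to 0.15), an interval that spans 0. The members' medians of these differences were 0.28, 0.02 and 0.21, beside -0.04, -0.002 and -0.06 for all genes, for triacsin C against none, etomoxir against none and triacsin C against etomoxir.

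The genes most like Bmf were sought by Pearson's correlation of log2 CPM (prior count 1) over the 16 samples among 10726 genes with a mean of at least 50. The highest were Tmco6 (r = 0.861), Adcyap1r1 (0.845), Fdft1 (0.842), Ly6c1 (0.838) and Nudt6 (0.837). The most opposite were Spry4 (r = -0.949), Fgf21 (-0.927), Angptl4 (-0.895), 2310057M21Rik (-0.886) and Pde1b (-0.869). Samples share their treatment groups and their libraries' scaling, so r follows the group means. Over the 6 group means, Ly6c1 and Spry4 were the 2 of these 10 still among the 5 highest or 5 lowest.

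Spry4, a feedback inhibitor of growth factor signalling, mirrored the 3 tiers of Bmf with group means of 773 in vehicle, 1421 in TC, 1268 in ETO and 2331, 2182 and 2407 in SR-3420, TC+SR-3420 and ETO+SR-3420. Fgf21, a stress hormone, had means of 10.2, 41.1 and 46.8 without SR-3420, in the same order, and 136, 181 and 144 with it. Tmco6 followed Bmf downward, with 285, 197 and 215 without SR-3420 and 102, 93.2 and 89.4 with it. Among the members themselves r with Bmf was 0.698 for Bbc3, 0.497 for Bcl2l11, 0.387 for Bad and 0.0927 for Bnip3l. It was -0.247 for Bcl2l1, -0.334 for Bid, -0.449 for Bcl2, -0.651 for Mcl1 and -0.778 for Pmaip1.

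Other genes of the pathway were taken from fixed lists. Their counts are to be read beside the shares of all genes called. These were 4.75% higher and 2.79% lower for SR-3420 against vehicle, and 17.3% and 19.7% for TC+SR-3420 against TC. For ETO+SR-3420 against ETO they were 12.5% and 12.8%, and for TC against vehicle 4.77% and 6.94%. ETO against vehicle had 0.0156% and 0.00782%. No list was tested against these shares. Beside each count the median log2 fold change of the list stands next to that of all genes, -0.004, 0.02, 0.01, 0.07 and 0.01 for SR-3420 against vehicle, TC+SR-3420 against TC, ETO+SR-3420 against ETO, TC against vehicle and ETO against vehicle. Scaling by library size only turned the sign of medians near 0, to -0.09 for the other BCL2 family genes and -0.08 for the anchors in SR-3420 against vehicle, to -0.04 for the anchors in TC against vehicle and to -0.05 for the death receptors in ETO+SR-3420 against ETO. In ETO against vehicle edgeR called 0 genes of every list. There the genes at an unadjusted p under 0.05 were 3 upstream factors, 3 p53 targets, 1 FOXO target, 3 ATF4 and CHOP targets and 0 in the other lists, and DESeq2 called 1, in the ATF4 and CHOP list.

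Of 16 other BCL2 family genes, among them the pore formers Bax and Bak1, 10 could be tested. SR-3420 against vehicle and TC against vehicle called 0 by edgeR, with 0 at an unadjusted p under 0.05 and 0 by DESeq2, and medians of 0.02 and 0.12. TC+SR-3420 against TC called 4 lower and 0 higher, with a median of -0.26, beside 19.7% lower and 17.3% higher of all genes. The count of 4 became 1 without TC+SR-3420 replicate 1 and 2 without TC+SR-3420 replicate 2. Bcl2l13, a mitophagy receptor, fell by 0.42 (SE 0.101, edgeR adjusted p = 0.00515), kept in all 13 alternatives. Bcl2l12 fell by 0.61 (SE 0.199, edgeR adjusted p = 0.0291), but the call was lost without the filter (0.0703) and without TC replicates 1 (0.111) or 2 (0.0737) or TC+SR-3420 replicates 1 (0.0837), 2 (0.0857) or 3 (0.0519). Bcl2l10 fell by 1.35 (SE 0.467, edgeR adjusted p = 0.0362) at a mean count of 16.1, lost without the filter (0.0628) and without TC replicates 2 (0.167) or 3 (0.0642) or TC+SR-3420 replicates 1 (0.137) or 2 (0.104). Bcl2l15 fell by 2.50 (SE 0.732, edgeR adjusted p = 0.0164) at a mean count of 6.35, lost without TC+SR-3420 replicate 1 (-1.80, 0.059). ETO+SR-3420 against ETO called Bcl2l10 alone (-1.31, SE 0.416, edgeR adjusted p = 0.0346, list median -0.08), lost with only the groups compared (0.0967) and without ETO replicates 2 (0.107) or 3 (0.0623) or ETO+SR-3420 replicates 1 (0.0695) or 2 (0.118), and without ETO+SR-3420 replicate 3 the list had 2 calls. The 4 calls under triacsin C became 2 without the filter, and under etomoxir library sizes only and DESeq2 each gave 2.

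Downstream of the pore, 18 genes of the apoptosome, caspases and their inhibitors were tested. TC+SR-3420 against TC called 3 higher and 6 lower (median -0.28), beside 17.3% higher and 19.7% lower of all genes. The count fell to 5 without TC+SR-3420 replicate 3. Endog, a nuclease of the mitochondrial interior, fell by 1.69 (SE 0.398, edgeR adjusted p = 0.00491), Casp6 by 0.74 (SE 0.157, edgeR adjusted p = 0.00248) and Aifm1 by 0.65 (SE 0.109, edgeR adjusted p = 0.000485), while Birc6, a giant inhibitor of caspases, rose by 0.56 (SE 0.118, edgeR adjusted p = 0.0024). All 4 kept their calls in 13 alternatives. ETO+SR-3420 against ETO called 1 higher and 3 lower (median -0.15), with Casp9, the caspase of the apoptosome, down by 0.62 (SE 0.111, edgeR adjusted p = 0.00134), lost only with the 2 groups alone (0.0519). SR-3420 against vehicle called 0 higher and 1 lower (median -0.20), and this count became 0 without the filter, with only the groups compared or without any 1 of the 4 samples, 2 with either other scaling or the stricter filter, and 3 in DESeq2. TC against vehicle called Birc6 alone, lower by 0.78 (SE 0.130, edgeR adjusted p = 0.00134, list median -0.04), in all 12 alternatives, where library sizes only called 2 genes and DESeq2 3. In a model of only the ETO and ETO+SR-3420 samples the 4 calls under etomoxir became 0.

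Of 10 genes for death receptors, ligands and adaptors, Bid among them, 7 were tested. TC+SR-3420 against TC called 1 higher, Ripk1 (0.64, SE 0.170, edgeR adjusted p = 0.00986, kept in all 13 alternatives), and 1 lower, Tradd (-0.70, SE 0.235, edgeR adjusted p = 0.0319), with a median of -0.05. Tradd lost its call, and the list count fell to 1, without TC replicates 1 (0.05), 2 (0.101) or 3 (0.0634) or TC+SR-3420 replicates 2 (0.114) or 3 (0.116). Tnfrsf10b, a receptor for TRAIL, was the single call in ETO+SR-3420 against ETO (0.49, SE 0.156, edgeR adjusted p = 0.0343, list median 0.01) and in TC against vehicle (0.65, SE 0.178, edgeR adjusted p = 0.0305, list median -0.12). Under etomoxir that call was lost with library sizes only (0.123), without the filter (0.0827), with only the groups compared (0.161) and without ETO replicates 1 (0.127) or 2 (0.0638) or ETO+SR-3420 replicates 2 (0.117) or 3 (0.0936). With triacsin C alone it was lost with library sizes only (0.12), without the filter (0.117) and without vehicle replicates 2 (0.146) or 3 (0.171) or TC replicates 1 (0.0917) or 3 (0.0737). SR-3420 against vehicle called 0 by edgeR, with 0 at an unadjusted p under 0.05 and 0 by DESeq2 (median 0.21). Under etomoxir DESeq2 and the stricter filter each called 2.

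The 9 tested anchors and regulators of BH3-only proteins and MCL1 include the dynein light chains that hold BMF (Dynll2) and BIM (Dynll1). Dynll2 was lower in each arm with SR-3420. It fell by 0.87 (SE 0.103, edgeR adjusted p = 3.88e-05) under triacsin C in all 13 alternatives, and by 0.47 (SE 0.103, edgeR adjusted p = 0.00497) under etomoxir, lost only with the 2 groups alone (0.0769). Without inhibitor it fell by 0.48 (SE 0.126, edgeR adjusted p = 0.0365), lost without the filter (0.08), with only the groups compared (0.362) and without vehicle replicates 2 (0.145) or 3 (0.151) or SR-3420 replicates 1 (0.223) or 3 (0.0859). Dynll1 rose by 1.02 (SE 0.177, edgeR adjusted p = 0.00189) with triacsin C alone in all 12 alternatives. It then fell by 0.55 (SE 0.154, edgeR adjusted p = 0.0131) with SR-3420 on top, lost without TC replicate 2 (0.0604) or TC+SR-3420 replicate 3 (0.0573). Huwe1, a ubiquitin ligase of MCL1, rose by 0.44 (SE 0.115, edgeR adjusted p = 0.00908) under triacsin C, lost without TC replicate 2 (0.051). The counts were 0 higher and 1 lower for SR-3420 against vehicle (median 0.03), 1 and 2 for TC+SR-3420 against TC (0.05), 0 and 1 for ETO+SR-3420 against ETO (0.13), and 1 and 0 for TC against vehicle (0.04). The 3 calls under triacsin C became 1 without TC replicate 2, and the single call under etomoxir became 2 without ETO+SR-3420 replicate 3. With only the groups compared the 3 became 6, and DESeq2 called 2 under etomoxir and 2 in TC against vehicle.

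Of 11 tested transcription factors upstream of BH3-only genes, 5 were higher and 1 lower for SR-3420 against vehicle (median 0.43), 6 and 1 for TC+SR-3420 against TC (0.46), 7 and 1 for ETO+SR-3420 against ETO (0.58), and 3 and 1 for TC against vehicle (0.37). Atf3, a stress-induced repressor, rose by 3.64 (SE 0.184), 2.20 (SE 0.139) and 3.34 (SE 0.147) on the log2 scale without inhibitor, under triacsin C and under etomoxir. Ddit3, which encodes CHOP, rose by 2.19 (SE 0.297), 1.98 (SE 0.241) and 1.88 (SE 0.240), and Myc by 2.04 (SE 0.194), 1.89 (SE 0.157) and 2.32 (SE 0.160). These 9 calls were kept in every alternative, at edgeR adjusted p of 0.000791 or less. Foxo4 was the factor that fell with SR-3420, by 0.80 (SE 0.110, edgeR adjusted p = 0.00012) with triacsin C and 0.58 (SE 0.110, edgeR adjusted p = 0.00208) with etomoxir, in all 13 alternatives each. Without inhibitor it fell by 0.62 (SE 0.134, edgeR adjusted p = 0.0138), lost with only the groups compared (0.26) and without vehicle replicates 2 (0.0945) or 3 (0.0613) or SR-3420 replicates 1 (0.0909) or 3 (0.0682). Foxo1 was the lower call in TC against vehicle (-0.66, SE 0.178, edgeR adjusted p = 0.0282), lost without vehicle replicates 2 (0.0825) or 3 (0.2) or TC replicates 1 (0.0877), 2 (0.0734) or 3 (0.0681). Without vehicle replicate 3 the count for SR-3420 against vehicle fell from 6 to 3 and that for TC against vehicle from 4 to 2, and every other single library left out gave 4 for the former. With only the groups compared, SR-3420 against vehicle had 3 and ETO+SR-3420 against ETO 5 of its 8.

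Among 21 tested p53 targets, Bbc3, Pmaip1 and Bax included, calls went both ways. The shares of all genes higher and lower were 4.75% and 2.79% for SR-3420 against vehicle and 17.3% and 19.7% for TC+SR-3420 against TC. They were 12.5% and 12.8% for ETO+SR-3420 against ETO and 4.77% and 6.94% for TC against vehicle. SR-3420 against vehicle had 5 higher and 1 lower (median 0.13), TC+SR-3420 against TC 6 and 5 (-0.08), ETO+SR-3420 against ETO 7 and 4 (0.20) and TC against vehicle 4 and 1 (0.35). Plk3, a stress kinase, rose by 2.28 (SE 0.229), 1.41 (SE 0.179) and 1.82 (SE 0.183) with SR-3420 without inhibitor, under triacsin C and under etomoxir, each at an edgeR adjusted p of 8.76e-05 or less and in every alternative. Sesn1 fell with SR-3420 by 0.93 (SE 0.137, edgeR adjusted p = 0.00019) with triacsin C and 0.97 (SE 0.136, edgeR adjusted p = 0.000245) with etomoxir, also in every alternative. Phlda3 fell by 1.17 (SE 0.306, edgeR adjusted p = 0.0089) with triacsin C in all 13. Trp53inp1 had the larger falls of 1.32 (SE 0.462, edgeR adjusted p = 0.0389) with triacsin C and 1.39 (SE 0.462, edgeR adjusted p = 0.0414) with etomoxir, which were less stable. The former was lost with library sizes only (0.0556), without the filter (0.0547), without TC replicates 1 (0.0862), 2 (0.0508) or 3 (0.0967) and without TC+SR-3420 replicates 1 (0.12) or 2 (0.136). The latter was lost with only the groups compared (0.137) and without ETO replicates 2 (0.0538) or 3 (0.192) or ETO+SR-3420 replicates 1 (0.115) or 2 (0.137). The count for SR-3420 against vehicle fell from 6 to 3 without vehicle replicate 3 and to 1 with only the groups compared, where the 11 of ETO+SR-3420 against ETO became 6.

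The 12 FOXO targets, Bcl2l11 among them, were mostly lower where called. The counts were 1 higher and 2 lower for SR-3420 against vehicle (median -0.37), 1 and 4 for TC+SR-3420 against TC (-0.39), 1 and 7 for ETO+SR-3420 against ETO (-0.46), and 3 and 5 for TC against vehicle (-0.20). Gabarapl1, an autophagy gene, had the same pattern as Bcl2l11. It rose by 0.56 (SE 0.110, edgeR adjusted p = 0.00426) with triacsin C alone and fell by 0.72 (SE 0.0974, edgeR adjusted p = 0.000104) with SR-3420 on top, the former lost without vehicle replicate 3 (0.47, 0.0834) and the latter kept in all 13 alternatives. Fbxo32, a muscle atrophy ubiquitin ligase, fell by 1.53 (SE 0.168, edgeR adjusted p = 4.37e-05) for ETO+SR-3420 against ETO and by 1.20 (SE 0.183, edgeR adjusted p = 0.000708) for TC against vehicle, in every alternative. Txnip was the target that rose with SR-3420, by 0.75 (SE 0.155, edgeR adjusted p = 0.00217) with triacsin C, kept in all 13. Irs2 fell there by 0.98 (SE 0.348, edgeR adjusted p = 0.0406), lost without TC replicates 1 (0.0874), 2 (0.11) or 3 (0.0546) or TC+SR-3420 replicates 2 (0.0939) or 3 (0.146). The 3 genes called in SR-3420 against vehicle became 1 without vehicle replicate 2 or SR-3420 replicate 1, the 5 in TC+SR-3420 against TC became 3 without replicate 3 of either group, and the 8 in TC against vehicle became 5 and 4 without vehicle replicates 2 and 3. With only the groups compared, the 3 in SR-3420 against vehicle became 0 and the 8 in ETO+SR-3420 against ETO became 2, while library sizes only and DESeq2 gave 5 and 6 for the former.

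The 12 ATF4 and CHOP targets, with Bbc3 and Pmaip1 among them, rose where called in the arms with SR-3420. The counts were 7 higher and 0 lower for SR-3420 against vehicle (median 1.21), 8 and 0 for TC+SR-3420 against TC (1.17), 8 and 0 for ETO+SR-3420 against ETO (1.05), and 2 and 1 for TC against vehicle (0.67), where the lower gene was Bbc3. Ppp1r15a, which encodes a phosphatase subunit that restarts translation, rose by 2.13 (SE 0.195), 2.12 (SE 0.159) and 2.19 (SE 0.159) without inhibitor, under triacsin C and under etomoxir. Chac1 rose by 2.12 (SE 0.293), 2.15 (SE 0.239) and 1.62 (SE 0.235). Both kept their calls in every alternative at edgeR adjusted p of 0.000867 or less. Pmaip1 was among the targets called under triacsin C and under etomoxir but not without inhibitor, and edgeR called Bbc3 higher in none of these comparisons. The 7 genes called in SR-3420 against vehicle became 4 without vehicle replicate 3 or SR-3420 replicate 3, and the 3 in TC against vehicle became 1 without vehicle replicate 2 and 5 in DESeq2. With only the groups compared, the 7 became 3 and the 8 in ETO+SR-3420 against ETO became 5.

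Of 10 tested mitophagy genes, with Bnip3l and Bcl2l13 among them, 1 was higher and 0 lower for SR-3420 against vehicle (median -0.16), 1 and 3 for TC+SR-3420 against TC (-0.25), 1 and 2 for ETO+SR-3420 against ETO (-0.26), and 1 and 1 for TC against vehicle (-0.16). Pink1, the kinase that labels damaged mitochondria, fell by 1.31 (SE 0.210, edgeR adjusted p = 0.000347) with SR-3420 under triacsin C, in all 13 alternatives. It fell by 0.94 (SE 0.208, edgeR adjusted p = 0.00498) under etomoxir, lost only with the 2 groups alone (0.0512). Sqstm1, a cargo receptor of autophagy, rose by 1.11 (SE 0.161, edgeR adjusted p = 0.000172) under triacsin C, also in all 13. The single call in SR-3420 against vehicle, Sqstm1, was lost without vehicle replicate 3 (0.183), SR-3420 replicate 1 (0.0906) or SR-3420 replicate 3 (0.076) and with only the groups compared (0.248). Library sizes only called 2 there. The 3 calls in ETO+SR-3420 against ETO became 5 without ETO+SR-3420 replicate 3 and in DESeq2 and 0 with only the groups compared, and the 2 in TC against vehicle became 1 without either vehicle replicate or TC replicates 1 or 2.

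**Figure D5:**
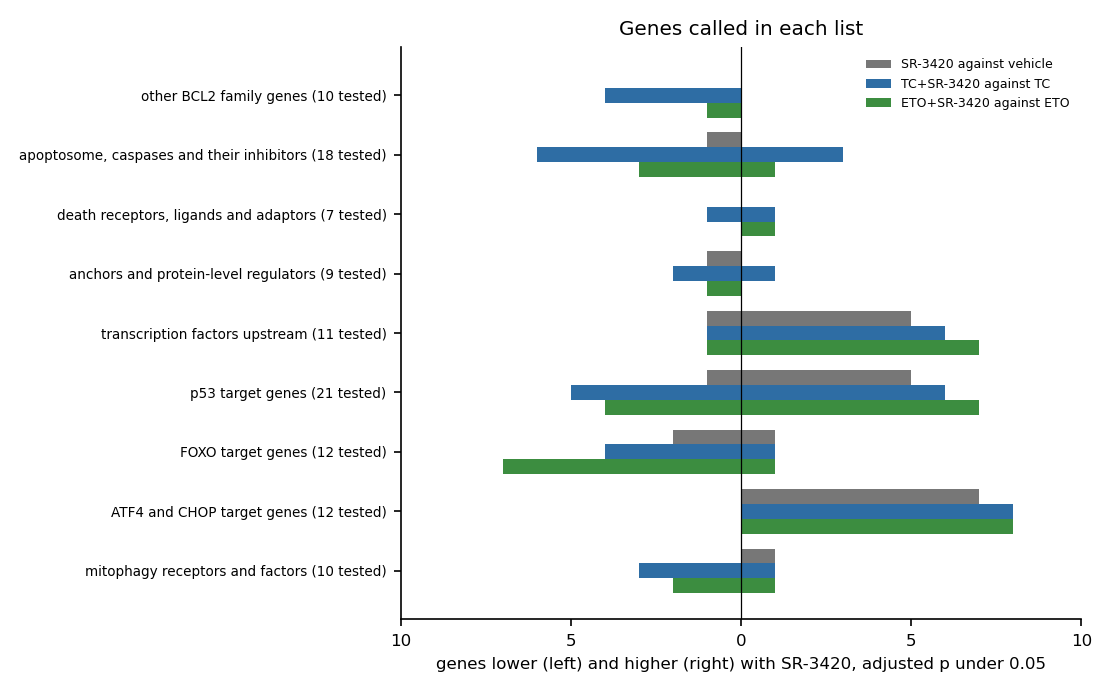
Number of genes called by edgeR as lower (left) or higher (right) with SR-3420 in each list, for the arm without inhibitor (grey), with triacsin C (blue) and with etomoxir (green), with the number tested beside the list's name. The upstream factors and the ATF4 and CHOP targets reach 5 to 8 higher in every arm, and the apoptosome list has 6 lower and 3 higher with triacsin C.

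Markers of cell types moved with SR-3420 as well, and their part in the members' differences was not tested. The summed level of the 12 brown adipocyte markers, in RPKM, was 15920 and 15535 in vehicle, 11478 and 11605 with SR-3420, 17890, 18353 and 18965 in TC and 6750, 7018 and 7781 in TC+SR-3420. It was 15345, 14635 and 17417 in ETO and 8008, 6553 and 11161 in ETO+SR-3420. This sum, led by Fabp4 (mean RPKM 9097) and Adipoq (1676), was lower with SR-3420 in each arm. Of the 11 tested, 0 were called higher and 1 lower in SR-3420 against vehicle, 1 and 6 in TC+SR-3420 against TC, 0 and 5 in ETO+SR-3420 against ETO, and 0 and 3 in TC against vehicle, and in ETO against vehicle edgeR, its unadjusted p under 0.05 and DESeq2 gave 0. Adipoq fell by 1.68 (SE 0.212, edgeR adjusted p = 6.23e-05) with triacsin C and by 1.24 (SE 0.209, edgeR adjusted p = 0.000922) with etomoxir, in all 13 alternatives each. The 1 gene called higher under triacsin C was Prdm16. Its call was lost with the stricter filter (edgeR adjusted p = 0.0511) and without TC replicates 1 (0.0814) or 3 (0.159) or TC+SR-3420 replicates 1 (0.152) or 2 (0.0736). Ppargc1a, Prdm16 and Pparg were the 3 called lower in TC against vehicle, where the summed level was higher. The 5 calls under etomoxir became 3 without ETO replicate 2, 2 without ETO+SR-3420 replicate 2 and 1 (Adipoq) with only the groups compared, and the single call without inhibitor, Pparg, was lost without any of the 4 samples, without the filter and with only the groups compared.

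In sum, the 7 fibroblast and preadipocyte markers were higher with SR-3420 in each arm, and Col1a1 led that sum (mean RPKM 421). Their summed level was 362 and 316 in vehicle, 804 and 592 with SR-3420, 516, 455 and 391 in TC and 949, 788 and 632 in TC+SR-3420. It was 443, 324 and 211 in ETO and 949, 693 and 472 in ETO+SR-3420. Of the 7, 2 rose in TC+SR-3420 against TC, where 5 had an unadjusted p under 0.05 and DESeq2 called 5, and 6 in ETO+SR-3420 against ETO. SR-3420 against vehicle and TC against vehicle called 0 by edgeR, with 3 and 0 at an unadjusted p under 0.05 and 2 and 0 by DESeq2. The 2 calls under triacsin C became 4 without TC replicate 1, 1 without TC replicate 2 and 0 without TC replicate 3 or TC+SR-3420 replicate 1, and the 6 under etomoxir became 3 without ETO+SR-3420 replicate 1 and 0 with only the groups compared.

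Macrophage markers were scarce, with summed levels of 3.12 to 14.04 led by Cd68, and Ptprc at no more than 16 counts (0 in 3 samples) and Emr1 at no more than 3 (0 in 7 samples). Csf1r and Cd68 were tested, and Cd68 rose by 1.92 (SE 0.269, edgeR adjusted p = 0.000366) with triacsin C alone and fell by 1.29 (SE 0.225, edgeR adjusted p = 0.000651) with SR-3420 on top, in every alternative. Endothelial markers summed to 0.165 to 0.727, with Pecam1 at no more than 13 counts and Cdh5 at no more than 10. Kdr, at no more than 50 counts, was the only one tested and rose by 0.96 (SE 0.306, edgeR adjusted p = 0.0246) under triacsin C and 1.28 (SE 0.298, edgeR adjusted p = 0.00681) under etomoxir. The former was lost without TC replicates 1 or 2 or TC+SR-3420 replicates 1 or 2 (0.0859, 0.106, 0.0555 and 0.056).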

How the data were processed

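Total RNA of 16 samples was sequenced, and the deposited values are raw read counts per gene, made by the authors with STAR 2.4.2a on mm9, with HOMER, which collapsed reads of the same start and length to 1, and with iRNA-seq for counting over genes. The genes and the lists (other BCL2 family genes, apoptosome and caspases, death receptors, anchors, upstream transcription factors, p53, FOXO, and ATF4 and CHOP targets, mitophagy, and markers of brown adipocytes, fibroblasts, macrophages and endothelium) were chosen with earlier results of these data known. Counts were scaled with TMM factors, filtered with filterByExpr and fitted over all 12786 genes left in 1 edgeR 4.0.16 quasi-likelihood model (R 4.3.3) of the 6 groups without covariates. RPKM and CPM use the TMM-scaled library sizes. Genes were called at a Benjamini-Hochberg adjusted p under 0.05. The pipeline was tested on simulated counts. Beyond the members, the genes named are called genes of a list with large changes, mostly those that kept their call in the alternatives, with a mean normalised count of at least 50 (any called gene for the BCL2 family list and the Kdr marker), and the 5 most and 5 least correlated with Bmf. Correlated genes carry no p. The genes that rank beside Bmf were named after their values were seen. The alternatives were DESeq2's size factors, library sizes only, DESeq2 1.42.0, no filter, a filter of 10 counts or more throughout, a log2 fold change of at least 1, only the groups compared, a replicate block, group means for the correlations, TPM for levels, and each sample left out. Total counts of 9452861 to 25670624 per sample set the precision. Figures used Python 3.11.15 and matplotlib 3.10.9.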

Additional observations from a re-analysis of the deposited data

Results flagged for a closer look

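In the lists of related genes, responses to SR-3420 differed between arms by edgeR's test of the difference with Benjamini-Hochberg adjustment. Cd68 responded with triacsin C by -1.98 on the log2 scale relative to no inhibitor (SE 0.362, adjusted p = 0.0139 by edgeR) and by -1.44 relative to etomoxir (SE 0.319, adjusted p = 0.0329 by edgeR). Its mean normalised counts were 57.9 in vehicle, 93.7 in SR-3420, 221 in TC, 90.3 in TC+SR-3420, 72.9 in ETO and 80.8 in ETO+SR-3420.

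Atf3 responded with triacsin C by -1.45 relative to no inhibitor (SE 0.215, edgeR adjusted p = 0.00494) and by -1.15 relative to etomoxir (SE 0.190, edgeR adjusted p = 0.0079), from means of 201, 1228 and 302 in vehicle, TC and ETO to 2515, 5638 and 3071 with SR-3420. The response of Insr was 1.01 higher with triacsin C than with etomoxir (SE 0.206, edgeR adjusted p = 0.0216), with means of 1202 in TC, 1442 in TC+SR-3420, 4125 in ETO and 2452 in ETO+SR-3420. That of Fbxo32 was 1.24 higher (SE 0.238, edgeR adjusted p = 0.0146), with means of 129, 106, 283 and 98.3 in the same order.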

How the results depend on the processing

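Of the members' called values with SR-3420 under triacsin C, Bcl2l11 (13 alternatives) and Pmaip1 (12) kept direction and call at the adjusted p threshold, and no called member changed sign in any alternative. The stricter call, which adds a log2 fold change of at least 1, is outside these 13 and dropped Bcl2l11 (-0.995). The calls that were lost stand beside the results. Counts of called members below include Bmf, and the cause of each shift was not tested. Bmf was chosen on these data, so its call is a test only in TC+SR-3420 against TC and a description elsewhere. In ETO against vehicle and for etomoxir against none, edgeR and DESeq2 each called 0 of the 9 other members. Vehicle and SR-3420 have 2 samples each, so the fits that leave out one of them assume that the lone sample varies like the other groups. With the filter of at least 10 counts in every sample Pmaip1 drops out. The planned search for the BH3 motif in proteins was not run. Low counts of Pmaip1 and Bmf limit what their differences can show.

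Requiring a log2 fold change of at least 1 left 430 of 964 called genes in SR-3420 against vehicle, 1893 of 4722 in TC+SR-3420 against TC, 1136 of 3234 in ETO+SR-3420 against ETO, 705 of 1497 in TC against vehicle and 178 of 293 in the response difference of triacsin C and etomoxir. It left 1 called member under triacsin C and 2 under etomoxir. DESeq2 called 1569 genes and 2 members in SR-3420 against vehicle, and 17 genes in ETO against vehicle (7 higher and 10 lower, where edgeR had 2 and 1). In the response differences it called 809 genes and 2 members for triacsin C against none (edgeR 321 genes), 9 genes and 1 member for etomoxir against none (edgeR 0) and 656 genes for triacsin C against etomoxir. Library sizes only gave 2 called members in SR-3420 against vehicle, and without the filter 163 genes were called for triacsin C against none.

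A model of only the groups compared called 46 genes in SR-3420 against vehicle, 1205 genes and 1 member in ETO+SR-3420 against ETO, and 0 genes and 0 members in ETO against vehicle. A block for the replicate number called 2438 genes and 3 members in SR-3420 against vehicle, 7185 genes in TC+SR-3420 against TC, 5776 in ETO+SR-3420 against ETO, 3072 genes and 5 members in TC against vehicle and 6 genes in ETO against vehicle. For the response differences it called 1669 genes and 3 members (triacsin C against none), 3 genes and 1 member (etomoxir against none) and 1055 genes (triacsin C against etomoxir). Deviations from group means correlated at a mean of 0.385 over 35 pairs of samples with the same number (lowest -0.275) and of -0.190 over 71 pairs with different numbers, and 11 of 16 samples correlated best with one of their own number. The labels do not say that the numbers pair the samples, so the block is an alternative.

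With the block, Bbc3 was also called in SR-3420 against vehicle (edgeR adjusted p = 0.0174), in ETO+SR-3420 against ETO (0.023) and for triacsin C against none (0.0399). Mcl1 was called in SR-3420 against vehicle (0.0459), TC+SR-3420 against TC (0.0179) and TC against vehicle (0.00264). Bcl2l1 was called in TC against vehicle (0.0212), also with DESeq2's size factors (0.0366) and library sizes only (0.039), and Bcl2l11 for triacsin C against none (0.0295). Bbc3 was called in SR-3420 against vehicle with library sizes only (0.0367).

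Members that were not called changed sign in 69 values. Library sizes only gave Bcl2l1 -0.0674 in SR-3420 against vehicle, Bcl2l11 0.0203 and Bcl2l1 0.0426 in ETO against vehicle, Mcl1 0.111 for triacsin C against none, Bcl2 0.00485 for etomoxir against none and Bid 0.0368 for triacsin C against etomoxir. Without the filter Bcl2l1 was 0.0145 in ETO against vehicle, Mcl1 0.0481 for triacsin C against none and Bid 0.0281 for triacsin C against etomoxir. The same Mcl1 difference was 0.0127 with DESeq2's size factors and 0.0129 in DESeq2. With only the groups compared Bcl2l1 was 0.0063 in ETO against vehicle and Bad -0.00571 for etomoxir against none. With the block Bid was -0.0453 in ETO against vehicle and Bnip3l -0.0585 for etomoxir against none.

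Leaving out each sample gave 306 to 504 called genes in SR-3420 against vehicle, 1989 to 3198 in ETO+SR-3420 against ETO, 702 to 1089 in TC against vehicle, 0 to 3 in ETO against vehicle, 53 to 179 for triacsin C against none and 145 to 262 for triacsin C against etomoxir. Called members were 3 to 5 in TC+SR-3420 against TC, where 3506 to 4056 genes were called. They were also 3 to 5 in ETO+SR-3420 against ETO, beside the 1989 to 3198 genes there. Bmf in TC+SR-3420 against TC ran from -1.03 to -0.81. In SR-3420 against vehicle Bad ran from -0.345 to 0.161, Bnip3l from -0.603 to 0.112 and Bcl2l1 from -0.0215 to 0.109. In TC+SR-3420 against TC Bnip3l ran from -0.464 to 0.123. In ETO+SR-3420 against ETO Bad ran from -0.275 to 0.0558 and Bnip3l from -0.728 to 0.225. In TC against vehicle Pmaip1 ran from -0.0187 to 2.06 and Bnip3l from -0.542 to 0.172. In ETO against vehicle Bcl2l11 ran from -0.0902 to 0.0162, Bid from -0.103 to 0.138, Bad from -0.407 to 0.101, Bnip3l from -0.294 to 0.592, Mcl1 from -0.104 to 0.179 and Bcl2l1 from -0.0500 to 0.0605.

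For triacsin C against none Pmaip1 ran from -0.937 to 1.15, Bnip3l from -0.176 to 0.539 and Mcl1 from -0.177 to 0.0991. For etomoxir against none Pmaip1 ran from -1.39 to 0.69, Bid from -0.237 to 0.00447, Bad from -0.267 to 0.240, Bnip3l from -0.438 to 0.516 and Bcl2 from -0.461 to 0.281. For triacsin C against etomoxir Bid ran from -0.143 to 0.0605 and Bnip3l from -0.294 to 0.660.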
